A study of Homo sapiens with 24 samples.

Results

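RASSF4, P2RY14, OR7A5, GHRHR and LINC00319 are 5 genes whose transcripts rose with the synthetic glucocorticoid dexamethasone (dex) in Nalm6 cells. In vehicle-treated cells, all of these genes but RASSF4 were near or at 0 counts. They were chosen by their names, after the dex response of shNS cells had put them at the top of the fold changes, and every RefSeq accession that the authors' table paired with these symbols was taken. This gave 5 accessions, 1 for each gene, of the 64519 in the count table. Nalm6 is a long-established line of human acute lymphoblastic leukemia at the B-cell precursor stage. RNA was sequenced from 24 libraries in 8 groups of 3 biological replicates, prepared on different days according to the labels' extraction protocol. The cells had been transduced with a lentiviral shRNA against G9a (shG9a), GLP (shGLP) or HP1γ (shHP1γ), or a non-specific shRNA (shNS), and each of these 4 lines received 100 nM dex or an equal volume of ethanol (etoh) for 8 h. Such shRNAs lower but do not delete their targets, the transduced cells were not described as clones, the shNS controls also carried an shRNA, and all 4 lines had Nalm6 as their only background.

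Dex binds the glucocorticoid receptor, a nuclear receptor that moves to chromatin and raises or lowers the transcription of its target genes, and glucocorticoids are a mainstay of treatment for B-cell precursor leukemia because they kill lymphoblasts. G9a and GLP are histone methyltransferases that also act as coactivators for a part of these genes, and HP1γ is a chromodomain protein that binds methylated lysines, including those on G9a and GLP themselves. The study asked which dex-regulated genes need these 3 proteins for their level after dex. The 5 genes have unrelated products. RASSF4 encodes a Ras association domain protein of the family that binds MST kinases, P2RY14 a Gi-coupled receptor for UDP-glucose and other UDP-sugars, OR7A5 an olfactory receptor, GHRHR the Gs-coupled receptor for growth hormone-releasing hormone, and LINC00319 a long non-coding RNA.

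On GRCh37, the build to which the authors mapped, the GENCODE annotation put RASSF4 (NM_032023) on the plus strand of chromosome 10 from 45454855 to 45491339. P2RY14 (NM_014879) lies on the minus strand of chromosome 3 from 150929905 to 150996330. OR7A5 (NM_017506) lies on the minus strand of chromosome 19 from 14937053 to 14945997, in a cluster of receptors of the OR7 family. GHRHR (NM_000823) lies on the plus strand of chromosome 7 from 30978284 to 31032869, and LINC00319 (NR_026960) on the plus strand of chromosome 21 from 44866481 to 44873782. The genes therefore sat on 5 different chromosomes.

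RefSeq promoter sequences (GRCh38.p14) were available for 4 of the 5 genes, LINC00319 being the exception, and are described for the 250 bases before each start site. These are 3 of them, shown because the genes differed in their level without dex and because OR7A5 held a receptor motif. Capitals mark a match to GNACA, any 3 bases and TGTNC, a relaxed form of the palindrome to which the glucocorticoid receptor binds, in OR7A5, and every CG dinucleotide in RASSF4 and GHRHR. The windows were chr19:14835186-14835435 on the minus strand, chr10:44959552-44959801 on the plus strand and chr7:30963703-30963952 on the plus strand.
OR7A5: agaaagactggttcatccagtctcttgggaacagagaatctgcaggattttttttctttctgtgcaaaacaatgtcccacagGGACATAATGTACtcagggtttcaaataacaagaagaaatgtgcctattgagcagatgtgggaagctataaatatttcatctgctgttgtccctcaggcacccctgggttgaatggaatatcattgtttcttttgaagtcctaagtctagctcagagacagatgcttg
RASSF4: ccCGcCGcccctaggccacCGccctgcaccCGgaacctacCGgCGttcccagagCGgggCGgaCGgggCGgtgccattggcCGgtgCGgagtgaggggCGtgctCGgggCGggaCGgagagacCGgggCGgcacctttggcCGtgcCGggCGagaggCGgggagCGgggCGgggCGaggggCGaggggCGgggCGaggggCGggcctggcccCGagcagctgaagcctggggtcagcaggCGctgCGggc
GHRHR: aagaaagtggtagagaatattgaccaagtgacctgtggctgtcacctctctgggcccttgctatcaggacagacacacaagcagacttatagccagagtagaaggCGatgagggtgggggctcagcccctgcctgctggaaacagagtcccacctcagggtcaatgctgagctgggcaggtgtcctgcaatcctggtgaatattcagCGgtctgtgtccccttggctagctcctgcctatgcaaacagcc

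The OR7A5 window held GGACATAATGTAC, with its first base at position -168 from the start site, and 0.327% of the 35116 promoters in the table held a match of this form within the same length. The motif reads the same on both strands, so each match was counted once. The windows of RASSF4 and GHRHR and both P2RY14 windows held none, and the shorter AGAACA, which 12.4% of all promoters carried on either strand, was in none of the 5 windows. The promoters also differed in composition. RASSF4, the gene with the highest level in ethanol, had 32 CG dinucleotides and 80.0% GC, against a median of 11 and 58.0% over all promoters, and 90.5% of promoters had fewer CG dinucleotides. GHRHR had 2 CG dinucleotides, the P2RY14 windows had 2 and 1, and OR7A5 had 0.

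Library totals ran from 9289533 to 14387770 counts, with a median of 11132064.5, so that 1 count stood for roughly 0.1 CPM. CPM is used here for counts scaled to the upper quartile-normalised library size. Read assignment may have limited these values, which was not tested. In the table, 73.6% of the accessions of genes with several accessions were at 0 in every library, against 26.4% for genes with 1 accession. GAPDH, for instance, had 0, 2, 22 and 1097 counts on its 4 accessions over all 24 libraries, and ACTB had 2729578 on its only one. RASSF4, OR7A5, GHRHR and LINC00319 had 1 accession each in the table and P2RY14 had 2. Of the B-cell precursor markers, CD79A (2835 counts over the 24 libraries) and MME (6629) were present, while CD79B and DNTT, each with several accessions, were at 0. Summed T-cell, epithelial and erythroid markers stayed at or under 0.514 CPM in every library. The accessions of the depleted genes EHMT1, encoding GLP, and CBX3, encoding HP1γ, were on average at 71.8% of shNS (1 accession, lower in 6 of 6 pairs of libraries) and at 86.4% and 68.1% (2 accessions, lower in 4 and 6 of 6 pairs). EHMT2, encoding G9a, was not analysed here, so the depletion of G9a was not checked in these counts. By immunoblot and RT-qPCR, the paper reports that each target was efficiently depleted in the sequenced cells.

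In ethanol, 4 of the 5 genes were close to the limit of detection. GHRHR was at 0 in 10 of the 12 ethanol libraries and at 1 count in 2 shGLP libraries. OR7A5 was at 0 in 8 of 12 and never above 2 counts. P2RY14 had 0 to 4 counts with a median of 1, and LINC00319 had 1 to 4 counts with a median of 2. RASSF4 did not share this state. It had 27 to 79 counts in every ethanol library, a mean of 4.22 CPM, and 42.5% of the 10167 tested transcripts lay below it, whereas the other 4 genes lay at 0.0156 to 0.184 CPM with no more than 0.108% of tested transcripts below them. The description "near-silent" thus held for GHRHR, OR7A5, P2RY14 and LINC00319 and not for RASSF4. Transcripts tested had to exceed 1 CPM in at least 2 libraries, a limit that these 4 genes passed through their dex libraries.

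In dex, all 5 genes were counted in every library, and for each gene the 12 dex libraries of the 4 lines lay above the 12 ethanol libraries. The choice of the genes by their rise in shNS cells partly fixed this separation. How many of all tested transcripts separate in the same way was not counted, so it is a description only. The lowest dex library exceeded the highest ethanol library 24-fold in CPM for OR7A5, 7.31-fold for GHRHR, 4.35-fold for LINC00319, 4.23-fold for P2RY14 and 3.34-fold for RASSF4. RASSF4 was the most abundant in dex, at 24.4 to 73.7 CPM. OR7A5 reached 4.17 to 12.98 CPM, and P2RY14, LINC00319 and GHRHR did not exceed 6.28 CPM, so that most of these genes remained low transcripts after induction. CPM is not scaled to transcript length, and levels of different genes are not compared further. In bulk RNA, a rise in all cells cannot be told apart from a larger rise in a part of them.

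**Figure D1:**
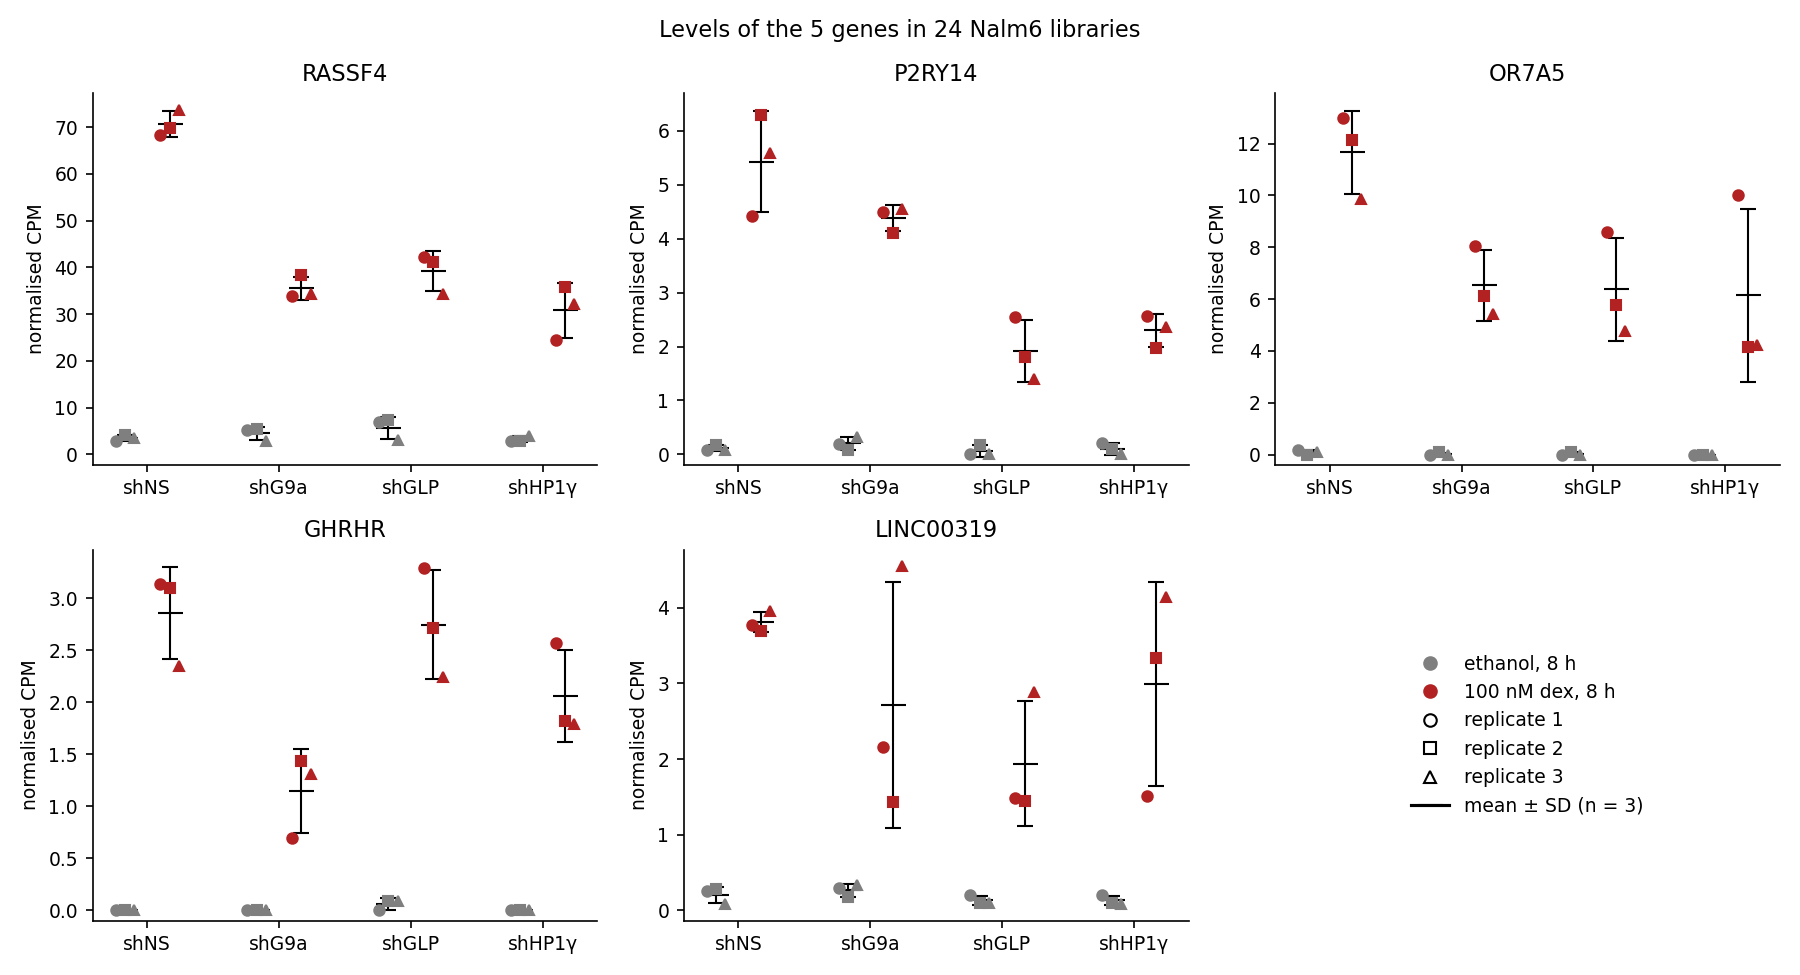
Each panel plots one gene in the 4 lines, with upper quartile-normalised CPM on a linear y axis. Grey symbols are ethanol and red symbols dex libraries, symbol shapes give the replicate, and black bars give the mean ± SD (n = 3). In all 5 panels the red symbols sit above every grey symbol, and the shNS dex libraries of RASSF4 (68.3 to 73.7 CPM) sit above those of the depleted lines (24.4 to 42.3 CPM).

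The shNS contrast chose the genes, so its values are a description without a test. When transcripts averaging 1 CPM or more and rising in 3 of 3 replicates were ordered, GHRHR had the largest fitted log2 fold change with dex (8.00), followed by OR7A5 (6.91), P2RY14 (5.41), RASSF4 (4.37) and LINC00319 (4.16). LINC00319 lay just inside this limit and KLF2 (3.78), a lymphocyte quiescence factor, just outside it. GHRHR had 0 counts in all 3 shNS ethanol libraries, so its fitted value depends on the prior count and its place in this order is that of the fit only. In a fit of the 6 shNS libraries alone, the genes ranked 1, 4, 5, 6 and 7, with TDRD9 and OR7C1 between them. Over all transcripts tested, 1.58% rose at least 2-fold with dex in shNS cells at an adjusted p up to 0.05 (quasi-likelihood test in edgeR).

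RASSF4 had 32, 44 and 41 counts in the shNS ethanol libraries and 742, 813 and 911 in the shNS dex libraries. These correspond to 3.44 ± 0.637 and 70.6 ± 2.74 CPM (SD, n = 3) and to a 20.6-fold ratio (exact 95% interval 17.1 to 25.1, counting error only). The shNS dex libraries were the highest of all 24 for this gene.

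In the depleted lines RASSF4 started from an overlapping range and ended lower. It went from 53, 63 and 34 counts to 392, 534 and 392 in shG9a, from 67, 79 and 32 to 399, 456 and 368 in shGLP, and from 27, 29 and 45 to 275, 473 and 342 in shHP1γ. The dex means were 35.5 ± 2.51, 39.3 ± 4.32 and 30.8 ± 5.88 CPM (SD, n = 3). The dex and ethanol libraries did not overlap in any line, and no dex library of a depleted line reached the lowest shNS dex library.

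P2RY14 had 1, 2 and 1 counts in shNS ethanol and 48, 73 and 69 in shNS dex, or 0.119 ± 0.0567 and 5.43 ± 0.939 CPM (SD, n = 3). With 4 ethanol counts in all, its ratio of 46.5 has an exact 95% interval from 17.9 to 172. In shG9a it went from 2, 1 and 4 counts to 52, 57 and 52, in shGLP from 0, 2 and 0 to 24, 20 and 15, and in shHP1γ from 2, 1 and 0 to 29, 26 and 25. The shG9a dex libraries fell within the shNS range or just under it, whereas all 6 dex libraries of shGLP and shHP1γ lay below every dex library of shNS and shG9a.

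OR7A5 had 2, 0 and 1 counts in shNS ethanol and 141, 141 and 122 in shNS dex, or 0.0863 ± 0.0869 and 11.7 ± 1.61 CPM (SD, n = 3). It went from 0, 1 and 0 to 93, 85 and 62 counts in shG9a, from 0, 1 and 0 to 81, 64 and 51 in shGLP, and from 0, 0 and 0 to 113, 55 and 45 in shHP1γ. The ratios of summed counts were 132 (44.8 to 642) in shNS, 221 (39.3 to 8759) in shG9a and 195 (34.7 to 7758) in shGLP, intervals so wide that they do not order the lines. Against a floor of 3 counts per library, the shHP1γ level was at least 21.1-fold higher with dex. In shHP1γ replicate 1 stood well above the other dex libraries (10.0 CPM against 4.17 and 4.24), and in 4 of 4 lines the highest dex library of OR7A5 was that of replicate 1.

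GHRHR had 0 counts in all ethanol libraries of shNS, shG9a and shHP1γ, and 0, 1 and 1 in shGLP. Its dex counts were 34, 36 and 29 in shNS, 8, 20 and 15 in shG9a, 31, 30 and 24 in shGLP, and 29, 24 and 19 in shHP1γ. The lowest 3 of the 12 dex libraries were therefore those of shG9a. Against the floor of 3 counts per library, GHRHR was at least 10.8-fold higher with dex in shNS, at least 4.31-fold in shG9a and at least 7.07-fold in shHP1γ. In shGLP the ratio of summed counts was 42.4 (exact 95% interval 11.4 to 356).

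LINC00319 had 3, 3 and 1 counts in shNS ethanol and 41, 43 and 49 in shNS dex, or 0.207 ± 0.106 and 3.81 ± 0.135 CPM (SD, n = 3). It went from 3, 2 and 4 to 25, 20 and 52 counts in shG9a, from 2, 1 and 1 to 14, 16 and 31 in shGLP, and from 2, 1 and 1 to 17, 44 and 44 in shHP1γ. Its dex level was tight in shNS and spread widely in the depleted lines, at 2.72 ± 1.63, 1.94 ± 0.824 and 3.00 ± 1.35 CPM (SD, n = 3) in shG9a, shGLP and shHP1γ. In 4 of 4 lines its highest dex library was that of replicate 3.

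The dex response was tested in the depleted lines, whose contrasts did not enter the choice by fold change, although their libraries counted towards the required mean of 1 CPM. GHRHR, P2RY14 and LINC00319 reached that mean over all 24 libraries only with the dex libraries of the depleted lines counted in. Their rise in these lines was thus partly fixed by the choice, and the shares over all transcripts given here are background only. The tests share 1 estimate of the spread over all 24 libraries, and p values measure the spread between these replicates only. All 5 genes rose at least 2-fold in each line, and the adjusted p was 0.05 or lower (quasi-likelihood test of edgeR with Benjamini-Hochberg adjustment). Over all 10167 transcripts the share that did so was 1.06% in shG9a, 0.826% in shGLP and 0.856% in shHP1γ. The rise held in 3 of 3 replicates of each line for each gene.

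RASSF4, the gene with enough ethanol counts for a well determined fold change, rose by a log2 fold change of 3.00 (SE 0.20, adjusted p = 8.69e-10) in shG9a, 2.78 (SE 0.20, adjusted p = 2.55e-09) in shGLP and 3.23 (SE 0.22, adjusted p = 8.32e-10) in shHP1γ. For P2RY14 the log2 fold changes were 4.33 (SE 0.40), 4.66 (SE 0.61) and 4.41 (SE 0.54), with adjusted p of 1e-07, 1.69e-05 and 7.01e-06. For LINC00319 they were 3.27 (SE 0.46), 3.79 (SE 0.58) and 4.44 (SE 0.53), with adjusted p of 4.35e-05, 0.000154 and 5.15e-06. OR7A5 had adjusted p of 4.54e-09, 1.03e-08 and 7.87e-09, and GHRHR of 0.000116, 8.43e-06 and 1.17e-05. The members' median log2 fold change, with genes at 0 in ethanol set to their lower bound, was 3.27, 4.66 and 4.40 in the 3 lines. In these, 1, 0 and 2 genes were at their bound, and the medians of the fitted values were 4.33, 4.66 and 4.44. The medians with bounds therefore do not order the lines. Over all tested transcripts the median was 0.00478, -0.0058 and -0.011. Well known glucocorticoid receptor targets moved in the same direction. TSC22D3 (GILZ), which restrains inflammatory transcription factors, rose by 3.89, 3.23 and 3.46 (NM_004089). FKBP5, a cochaperone of the receptor, rose by 1.09, 1.20 and 1.29, and the clock gene PER1 by 0.53, 0.80 and 0.89. Each of these values had an adjusted p at most 0.05 (edgeR). Of 5 tested transcripts of these 3 genes, 4 passed in shG9a, 4 in shGLP and 5 in shHP1γ.

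The difference between the dex responses of 2 depleted lines was tested as an interaction. None of the 5 genes passed an adjusted p of 0.05 in any of the 3 interactions (edgeR), with 0 at an unadjusted p under 0.05 and 0 by DESeq2. Apart from RASSF4, the genes had too few ethanol counts for this test to detect any but large differences. The SE of the log2 interaction was 1.59 to 1.65 for OR7A5 and 0.88 to 1.14 for LINC00319, against 0.30 to 0.32 for RASSF4. The absence of a call therefore does not show that the responses were equal. Over all 10167 transcripts, 0% were called and 513, 463 and 196 had an unadjusted p under 0.05.

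Levels after dex were compared directly between the depleted lines, since none of these contrasts uses an shNS library. The contrasts share lines with each other and their values are given side by side. Between dex-treated shGLP and shG9a cells, 2 of the 5 genes differed, at 8.62% of all transcripts called, and they differed in opposite directions. GHRHR was higher in shGLP (2.75 ± 0.523 against 1.15 ± 0.400 CPM, log2 difference 1.22, SE 0.31, adjusted p = 0.0181, edgeR). P2RY14 was lower in shGLP (1.92 ± 0.579 against 4.38 ± 0.244 CPM, log2 difference -1.20, SE 0.27, adjusted p = 0.00596, edgeR). For both genes the 3 dex libraries of each line did not overlap.

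Both calls were sensitive to the number of libraries, while the differences kept their direction. With any replicate left out, the log2 difference of GHRHR was 0.84 to 1.44 and its adjusted p 0.0976 to 0.127. That of P2RY14 was -1.43 to -0.99, with an adjusted p of 0.0549 without replicate 2 and 0.138 without replicate 3 (edgeR). A permutation of 3 against 3 libraries cannot give a p below 0.10, and the calls rest on the spread shared over all groups and genes. A myeloid marker moved with shGLP as well. LYZ was at 23.5 ± 4.19 CPM in shGLP dex against 5.43 ± 1.15 in shG9a dex, 2.56 ± 0.821 in shNS dex and 4.89 ± 2.96 in shHP1γ dex (SD, n = 3). The summed myeloid list (LYZ, CD14 and CSF1R) was nearly all LYZ, with 2537 counts over the 24 libraries against 25 for CD14 and 0 for CSF1R. It ran from 19.4 to 31.5 CPM in shGLP and from 1.78 to 10.5 CPM in the other lines. The sum thus repeats the LYZ difference and adds no second marker. The part of LYZ in the shGLP values was not tested.

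Between dex-treated shHP1γ and shG9a cells, with 6.43% of all transcripts called, P2RY14 was the only one of the 5 genes that passed (2.30 ± 0.303 against 4.38 ± 0.244 CPM, log2 difference -0.93, SE 0.26, adjusted p = 0.0315, edgeR). This call was lost when any replicate was left out (adjusted p 0.0638 to 0.169) and without the replicate block (0.0747), with log2 differences between -1.01 and -0.88 in these settings. GHRHR had a log2 difference of 0.81 (SE 0.31) with an adjusted p of 0.141. Between shHP1γ and shGLP, at 4.02% called, 0 of 5 genes passed in edgeR, with RASSF4 at an unadjusted p of 0.0414 (log2 difference -0.35, SE 0.16) and 0 by DESeq2. RASSF4, OR7A5 and LINC00319 passed in none of these 3 comparisons.

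In ethanol, 0 of 5 genes differed between any of the 3 pairs of depleted lines by edgeR, at 6.23%, 6.07% and 4.2% of all transcripts called for shGLP against shG9a, shHP1γ against shG9a and shHP1γ against shGLP. RASSF4 alone had an unadjusted p under 0.05, being lower in shHP1γ than in shGLP (3.22 ± 0.686 against 5.74 ± 2.35 CPM, log2 difference -0.80, SE 0.27, adjusted p = 0.109), and DESeq2 called this gene in that pair. The other 4 genes had too few ethanol counts for a difference to be detectable.

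Against shNS the dex levels are again a description, since the same shNS libraries chose the genes and all 3 contrasts share them, and choosing genes for a high shNS dex level favours lower values elsewhere. Relative to the shNS dex library of the same replicate, 41 of 45 pairs were lower and all 15 means were lower. The 45 pairs reuse the same shNS dex libraries and are not independent. The share of all tested transcripts that was lower was not computed, so these counts have no background to be read against. RASSF4 was at 50.4 ± 4.25% in shG9a, 55.8 ± 8.11% in shGLP and 43.6 ± 7.81% in shHP1γ (SD, n = 3), at most 61.9% in 9 of 9 pairs. OR7A5 was at 55.8 ± 5.81%, 54.0 ± 10.5% and 51.5 ± 22.6%. These were the 2 genes with a similar mean percentage in the 3 depleted lines.

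The percentages of P2RY14 and GHRHR were less alike across the lines. P2RY14 was at 82.9 ± 18.3% in shG9a, with 101.8% in replicate 1, and at 37.1 ± 17.8% and 43.9 ± 13.5% in shGLP and shHP1γ. GHRHR showed another order, with 41.5 ± 17.5% in shG9a, 96.0 ± 8.64% in shGLP and 72.4 ± 12.2% in shHP1γ. LINC00319 was at 70.3 ± 39.6%, 50.5 ± 19.5% and 78.2 ± 34.0%, and its replicates ran from 38.9% to 114.8% in shG9a alone, so that no order of the lines can be read from it. The 4 pairs that were not lower were shGLP replicate 1 for GHRHR, shG9a replicate 1 for P2RY14, and replicate 3 of shG9a and of shHP1γ for LINC00319.

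**Figure D2:**
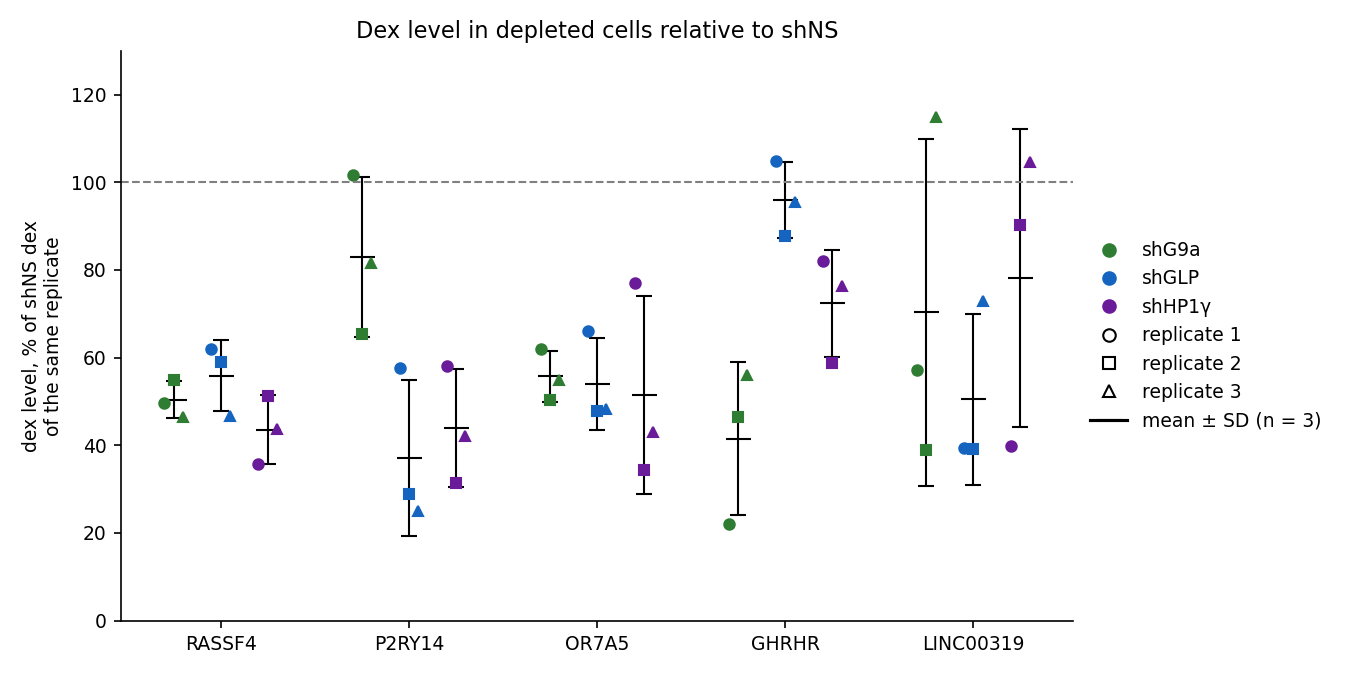
The y axis gives the dex level of each gene in a depleted line as a percentage of the shNS dex library with the same replicate number, for shG9a (green), shGLP (blue) and shHP1γ (purple). Symbols are replicates, black bars the mean ± SD (n = 3) and the dashed line marks 100%. RASSF4 and OR7A5 lie between 34.4% and 77.1% in all lines, GHRHR is lowest in shG9a and P2RY14 is highest there.

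Genes near these 5 loci were read from a list of neighbours, of which 11 accessions were tested, 5 within 50 kb of a member and 6 farther away. ZNF22-AS1, beside RASSF4, was also tested but was not on this list, and its values are given below. The neighbours that rose lay at the OR7A5, P2RY14 and RASSF4 loci. Of the tested neighbours on the list, 3 of 11 rose in shG9a, 3 of 11 in shGLP and 4 of 11 in shHP1γ (adjusted p up to 0.05, edgeR), where 3.26%, 1.95% and 2.12% of all transcripts rose. Among those that rose, OR7C1 and MED12L passed the filter of 1 CPM through their dex libraries alone. OR7C1, MED12L and DEPP1 also overlap exons of a member. The shares over all transcripts therefore do not measure how unusual these counts were. All that rose lay within 50 kb. At LINC00319 the 5 tested genes lay beyond 50 kb and none rose, and of these RRP1, a ribosome biogenesis factor, fell by 0.27 in shHP1γ (SE 0.07, adjusted p = 0.0284, edgeR), where 1.09% of all transcripts fell. No neighbour of GHRHR was tested.

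OR7C1 (NM_198944), a second olfactory receptor of the same family, shares exon sequence with OR7A5 in the annotation on the same strand. It had 0 counts in every ethanol library of shNS, shG9a and shGLP and 1 count in shHP1γ. Its dex counts were 22, 22 and 26 in shNS, 12, 14 and 13 in shG9a, 8, 2 and 10 in shGLP, and 20, 8 and 10 in shHP1γ. OR7C1 thus followed the same on and off pattern as OR7A5 at a lower count. Its adjusted p with dex was 0.000476, 0.00798 and 0.00198 in the depleted lines (edgeR), and against the floor it was at least 3.98-fold higher in shG9a and at least 2.26-fold in shGLP. OR7A10, a further receptor that lies 5281 bases away, was at 0 in all 12 ethanol libraries and had 14, 5, 6 and 4 counts summed over the dex libraries of shNS, shG9a, shGLP and shHP1γ, too few to be tested. OR7D2, a family member on the same chromosome arm outside this cluster, did not pass in any line (adjusted p 0.707 to 0.757, edgeR). How reads in the shared exon were divided between OR7A5 and OR7C1 is not given in the sources used here.

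GPR171 (NM_013308), a receptor gene of the P2Y-related cluster, lies 8902 bases from P2RY14 on the same strand. Its summed counts went from 43 in ethanol to 324 in dex in shNS, from 55 to 363 in shG9a, from 18 to 108 in shGLP and from 24 to 242 in shHP1γ. It rose with log2 fold changes of 2.59 (SE 0.45, adjusted p = 0.00068), 2.59 (SE 0.65, adjusted p = 0.0258) and 3.04 (SE 0.55, adjusted p = 0.00139, edgeR) in the depleted lines. The shHP1γ value leaned on replicate 1, with 178 dex counts against 33 and 31. Like P2RY14, GPR171 was lower in shGLP dex (3.44 ± 0.479 CPM) than in shG9a dex (10.0 ± 2.91 CPM, SD, n = 3), with a log2 difference of -1.48 (SE 0.40, adjusted p = 0.0228, edgeR). It did not pass between shHP1γ and shG9a (-0.63, SE 0.37, adjusted p = 0.339). MED12L, whose exons overlap P2RY14 on the opposite strand, passed in shHP1γ alone (adjusted p = 0.0231, 3 counts in ethanol and 25 in dex), and since the strand of counting is not given, its reads within the overlap cannot be told apart from those of P2RY14.

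DEPP1 (NM_007021), a FOXO target gene whose exons overlap RASSF4 on the opposite strand, went from 26.3 ± 1.90 CPM in ethanol to 97.3 ± 10.8 CPM in dex in shNS (SD, n = 3). It rose with log2 fold changes of 0.79 (SE 0.15, adjusted p = 0.00153), 1.15 (SE 0.15, adjusted p = 2.6e-05) and 1.34 (SE 0.16, adjusted p = 4.59e-06, edgeR) in shG9a, shGLP and shHP1γ, all smaller than those of RASSF4. Its reads and those of RASSF4 cannot be told apart in the overlap. ZNF22, 5032 bases beyond RASSF4 on the same strand, did not pass in any line (log2 fold changes -0.03, -0.03 and -0.02). Closer to RASSF4, 1807 bases away on the opposite strand, ZNF22-AS1 passed in shHP1γ alone. Its log2 fold changes in shG9a, shGLP and shHP1γ were 0.20, 0.22 and 0.48 (adjusted p 0.364, 0.400 and 0.0327, edgeR).

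**Figure D3:**
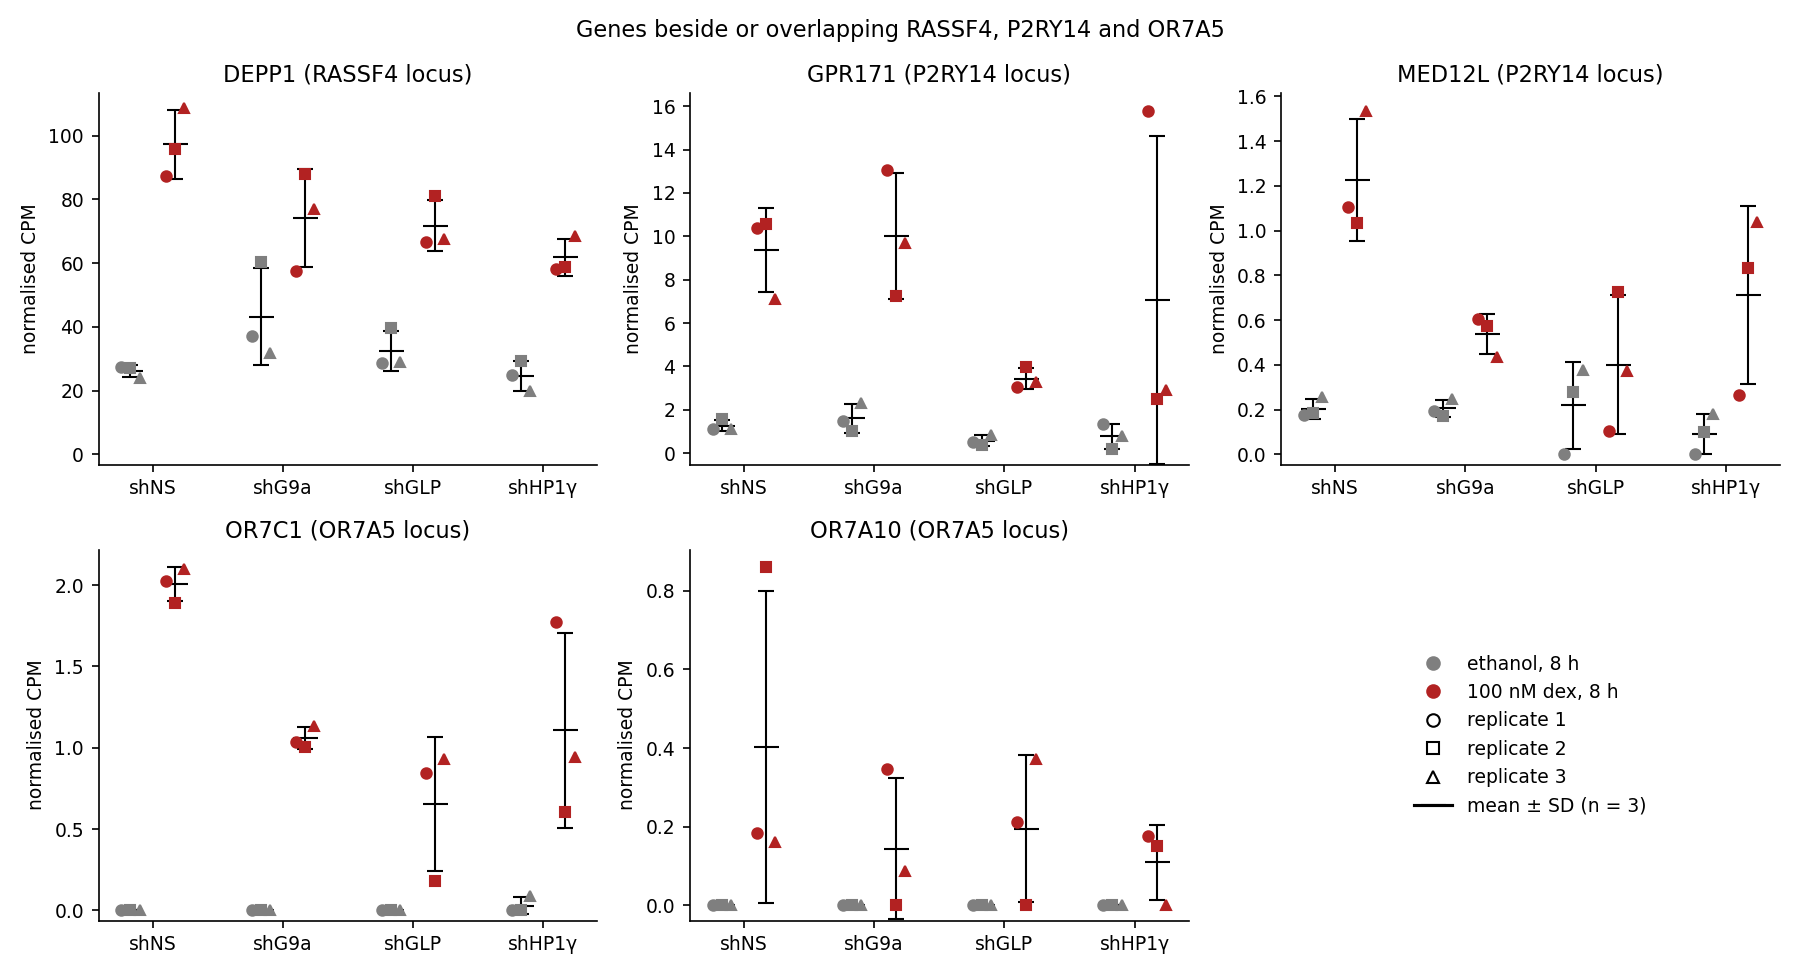
Panels plot upper quartile-normalised CPM (linear y axis) of DEPP1 at the RASSF4 locus, GPR171 and MED12L at the P2RY14 locus, and OR7C1 and OR7A10 at the OR7A5 locus, with grey ethanol and red dex symbols, shapes for the replicate and black bars for the mean ± SD (n = 3). OR7C1 and OR7A10 sit at 0 in ethanol apart from 1 OR7C1 library, and the GPR171 dex library of shHP1γ replicate 1 stands far above the other 2 of that group.

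The families and pathways of the 5 products were looked at in the same 3 contrasts. Of 9 other RASSF genes, RASSF1, RASSF2, RASSF3, RASSF5 and RASSF10 were tested and 0 of 5 passed in any depleted line, with a median log2 fold change between -0.14 and -0.01, and 0 of 8 tested accessions of the MST kinase pathway, among them STK4, SAV1 and LATS2, passed. Of 12 P2Y and related nucleotide receptors GPR171 was the only one tested. Of 6 tested accessions for UDP-sugar synthesis and Gi subunits, GNAI3, a Gi subunit, fell in shG9a (log2 fold change -0.19, SE 0.05, adjusted p = 0.0407, edgeR), where 2.98% of all transcripts fell, and none passed in the other lines.

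For the receptor genes the partners were mostly below the tested range. Of 10 other OR7 family genes OR7C1 and OR7D2 were tested, and none of 9 olfactory signalling genes was. Of 12 genes of the growth hormone-releasing hormone axis only the somatostatin receptor gene SSTR2 was tested, and of 14 class B peptide hormone receptors only VIPR2, and neither passed. Gs and cAMP signalling, which lies downstream of GHRHR, had 13 tested accessions of 9 genes, including GNAS, ADCY7 and PRKACA, and 0 passed in any line. An untested gene with several accessions may have lost reads in counting, so its absence from these counts does not show that it was off.

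Over the 24 libraries, the profile of log2(CPM + 1) most like a given member was often that of another dex-induced transcript. OR7A5 was closest to SMIM3 (Pearson r = 0.975), CHST7 (0.974) and MCAM (0.970), and RASSF4 to MCAM (0.971), OR7A5 (0.965) and NFKBIA (0.964). P2RY14 was closest to BTNL9 (0.962), OR7A5 (0.960) and BTG1 (0.959), GHRHR to OR7A5 (0.954), TAPT1 (0.950) and LY86-AS1 (0.950), and LINC00319 to PREX1 (0.965), CLN8 (0.957) and MCAM (0.941). OR7A5 was thus among the 3 closest profiles for 3 of the other 4 genes. SMIM3 went from 84.0 ± 11.01 to 504 ± 11.2 CPM with dex in shNS cells, and MCAM, a cell adhesion molecule, from 549 ± 5.07 to 1212 ± 36.1 CPM (SD, n = 3). These correlations are descriptions across libraries that share the same dex and ethanol groups.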

How the data were processed

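Nalm6 cells in 4 shRNA lines, treated with dex or ethanol, gave 24 libraries. The authors mapped paired-end reads with HISAT2 (GRCh37) and counted reads per RefSeq transcript. The deposited table, named for CPM, holds whole-number counts and was used as raw counts. The authors' table of fold changes and adjusted p values served only to pair 63745 accessions with symbols. Counting mode and strand are not given in the sources used here.

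Transcripts above 1 CPM in at least 2 libraries (10167) were tested with edgeR 4.0.16 (R 4.3.3): upper quartile factors, 8 groups plus replicate number as block, quasi-likelihood F test and Benjamini-Hochberg adjustment over all tested transcripts. The block stands in place of the authors' correction for unwanted variation. A dex response meant an adjusted p of 0.05 or lower and, for the 5 genes, a rise of 2-fold or more. The labels' extraction protocol places replicates on different days but does not say which libraries shared one. On simulated data for dex in shG9a (10167 transcripts, 200 changed), 96.7% of 4-fold and 72.5% of 2-fold changes were recovered and 3.47% of calls were false.

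The 5 genes and all gene lists were chosen with earlier results of these data known. Named beyond them were the next transcript in the shNS order, list members that passed, 3 receptor targets and the 3 closest profiles per gene. LYZ, TDRD9, ZNF22-AS1, and genes named without passing, were chosen after their values were seen. Ratios carry exact 95% intervals for counting error only, and 3 counts per library served as floor. Alternatives were DESeq2 1.42.0, other scaling and filters, no block, only the groups compared, and leaving out each replicate.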

Additional observations from a re-analysis of the deposited data

Results flagged for a closer look

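A second RefSeq accession of P2RY14 (NM_001081455), which the authors' symbol table does not list and which was too low to be tested, also carried a dex signal. It had 43 counts summed over the 12 dex libraries and 2 over the 12 ethanol libraries. Every dex library had at least 1 count, while 10 of 12 ethanol libraries had 0. By line, the dex sums were 16 in shNS, 11 in shG9a, 5 in shGLP and 11 in shHP1γ, so the lowest sum was again that of shGLP. Dex libraries of this accession had at most 8 counts, and differences between lines were not detectable at this depth.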

How the results depend on the processing

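The rise of all 5 genes with dex in each depleted line was called under every alternative that tested 5 genes, apart from GHRHR in shG9a with only the groups compared (adjusted p 0.0656). A filter of at least 2 CPM on average left only RASSF4 and OR7A5, so that 2 genes were called in shG9a, 2 in shGLP and 2 in shHP1γ, 2 remained among the 5 largest rises in shNS, and 6 of 6 values against shNS were lower. That filter gave 0 calls between shGLP and shG9a and 0 between shHP1γ and shG9a. With only the groups compared, both also gave 0 (adjusted p for P2RY14 0.0593 and 0.246, for GHRHR 0.129). Leaving out each replicate gave 0 to 1 calls between shGLP and shG9a and 0 between shHP1γ and shG9a. Deviations of same-numbered libraries from their group means correlated from 0.0122 to 0.535, above 0.1 in 56 of 84 pairs. Without the replicate block the call between shHP1γ and shG9a was lost (0 genes), and no other call changed. DESeq2 gave an adjusted p for 2 to 5 of the genes, depending on the comparison, and all genes called by edgeR that had one were called. Differences near 0 changed sign with 1 replicate left out. That of OR7A5 ran from -0.14 to 0.0039 between shGLP and shG9a, from -0.47 to 0.0445 between shHP1γ and shG9a and from -0.33 to 0.0870 between shHP1γ and shGLP, and that of LINC00319 from -0.27 to 0.46 between shHP1γ and shG9a (log2). The cause was not tested. With 0 to 4 counts per ethanol library, depth limits what can be said of the levels of the 4 lowest genes without dex.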
